A study of Homo sapiens with 12 samples.

Results

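The receptors through which AU565 cells hold the extracellular matrix were followed across 4 culture formats. They are 10 genes, chosen by symbol from the 16020 rows of the count table: 4 integrin α subunits (ITGA2, ITGA3, ITGA6 and ITGAV), 5 integrin β subunits (ITGB1, ITGB4, ITGB5, ITGB6 and ITGB8) and DAG1, which encodes dystroglycan. All 10 had a row and all 10 passed the filter on low counts that left 15175 genes for testing. AU565 is an established line of human breast cancer cells in which the ERBB2 gene is amplified. Its cells were grown as a monolayer, as small spheroids, as large spheroids (both in liquid overlay, where cells cannot attach to the dish and clump) or in capsules, with 3 RNA sequencing libraries per format and 12 in all. No genotype was changed. Every library, monolayer included, carries 1 treatment label: liquid overlay with 5% matrigel, a basement membrane extract rich in laminin, after exposure to trastuzumab, an antibody against the ERBB2 receptor, and 96 h of incubation. All 12 libraries are also listed with 10% serum. No library without the antibody was analysed here, so no comparison measures the effect of trastuzumab. Nothing in the labels shows that replicates came from separate cultures. The p-values therefore measure the spread between libraries only, part of which may be technical.

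Integrins are cell surface receptors made of 1 α and 1 β subunit, and the pair decides which matrix protein is bound. ITGB1 is the shared partner of many α subunits: with ITGA2 it binds collagen, and with ITGA3 or ITGA6 it binds laminin. ITGB4 pairs with ITGA6 in hemidesmosomes, the laminin anchors of epithelial cells. ITGAV pairs with ITGB5, a vitronectin receptor, or with ITGB6 or ITGB8, which bind and activate latent TGF-β. Dystroglycan is a laminin receptor of another family, whose binding depends on sugar chains added by dedicated enzymes. All of these are transcript measurements, and in bulk RNA fewer cells of a type and less RNA per cell cannot be told apart.

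Library totals ran from 13971346 to 24729250 counts. Capsule replicate 1 stood apart: its chi-square per gene against the other capsules was 40.1 and 35.5, against 2.87 to 12.7 between all other replicates of 1 format. Its column spells the format differently and was matched by format and number. The sample titles of monolayers and large spheroids carry the tag UP, and those of small spheroids and capsules do not. The meaning of the tag is not given. A split of monolayers and large spheroids from small spheroids and capsules therefore cannot be told apart from whatever the tag marks. The 10 luminal breast markers summed to 12846 to 21543 CPM (counts scaled to library depth and by the trimmed mean of M-values, TMM), and none of them was at 0 in any library. Of the 8 basal markers, 5 had a row, and KRT5 reached at most 0.977 CPM. Fold changes also followed GC content over the whole transcriptome. The Spearman correlation of a gene's log2 fold change against monolayer with the GC content of its transcript, over 14638 genes, was 0.68 in small spheroids, 0.19 in large spheroids and 0.44 in capsules. After correction for GC content and length within each library these became -0.01, -0.02 and -0.06. Capsule replicate 1 also differed here. The Spearman correlation of a library's log2 deviation from the mean of all libraries with GC content was -0.16 in it. In capsule replicates 2 and 3 it was 0.35 and 0.33. Changes below are as counted, and those called corrected come from the fit with this correction. The members split by GC content: ITGB8, ITGAV, ITGB1, ITGB6, ITGA2 and ITGA6 lie between 37.8% and 42.9%, and ITGB5, DAG1, ITGA3 and ITGB4 between 54.3% and 63.7%, around a median of 49.3% for all genes tested. Whether the GC relation arose in the cells or in the preparation was not tested.

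The 250 bases before the annotated gene start, from RefSeq (GRCh38.p14), are shown for 4 genes whose directions are compared below: ITGB1 and ITGAV, which were lower in every other format than in monolayer on average, ITGB6, which was low in small spheroids and capsules, and ITGB5, which was high there. The windows are chr10:32958231-32958480 on the minus strand (ITGB1), chr2:186589806-186590055 on the plus strand (ITGAV), chr2:160200273-160200522 on the minus strand (ITGB6) and chr3:124901419-124901668 on the minus strand (ITGB5). Each reads 5′ to 3′ along its gene, with GGGCGG, the box bound by SP1, in capitals on either strand.
ITGB1: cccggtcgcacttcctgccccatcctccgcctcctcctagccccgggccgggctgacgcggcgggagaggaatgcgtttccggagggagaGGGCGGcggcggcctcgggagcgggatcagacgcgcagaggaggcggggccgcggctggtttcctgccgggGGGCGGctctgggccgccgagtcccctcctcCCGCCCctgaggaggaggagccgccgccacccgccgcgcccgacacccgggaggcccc
ITGAV: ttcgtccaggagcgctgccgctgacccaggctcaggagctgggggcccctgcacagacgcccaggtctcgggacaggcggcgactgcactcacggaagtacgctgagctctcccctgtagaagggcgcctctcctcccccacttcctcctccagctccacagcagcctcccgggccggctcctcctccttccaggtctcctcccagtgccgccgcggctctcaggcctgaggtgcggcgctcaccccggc
ITGB6: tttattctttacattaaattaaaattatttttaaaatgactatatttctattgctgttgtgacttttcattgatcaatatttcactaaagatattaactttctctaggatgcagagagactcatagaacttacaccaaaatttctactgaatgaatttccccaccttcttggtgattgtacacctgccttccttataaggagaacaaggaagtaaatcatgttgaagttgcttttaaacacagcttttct
ITGB5: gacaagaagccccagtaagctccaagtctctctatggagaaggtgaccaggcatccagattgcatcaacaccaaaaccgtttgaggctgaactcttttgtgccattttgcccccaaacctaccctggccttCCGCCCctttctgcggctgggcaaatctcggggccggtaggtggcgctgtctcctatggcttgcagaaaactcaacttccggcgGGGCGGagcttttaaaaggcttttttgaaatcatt
The 4 windows differ in base composition. ITGB1 has a GC content of 78.4% and 32 CpG dinucleotides, ITGAV 70.8% and 18, ITGB5 52.8% and 9, and ITGB6 30.0% and 0, where the median of 35116 RefSeq windows of this length is 58.0% and 11. The SP1 box occurs 3 times before ITGB1 and 2 times before ITGB5, and these letters do not occur in the windows of ITGAV and ITGB6. It occurs in 42.6% of all windows. The hypoxia response core (ACGTG or GCGTG, either strand), present in 43.2% of all windows, and the AP-1 motif TGANTCA, present in 6.6%, have no match in any of these 4 windows. The ETS motif CCGGAAG, present in 8.5%, has 1 match before ITGB5 and none before the others. These are windows before the outermost start, and RefSeq lists other starts. The 2 further windows of ITGB5 hold 3 and 1 hypoxia cores and 0 and 3 SP1 boxes at 56.4% and 75.2% GC, and the 1 further window each of ITGB1 (41.6% GC) and ITGAV (40.8%) holds neither. RefSeq windows matched 8 of the 10 members, the exceptions being ITGA3 and ITGB4.

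In the test over all 4 formats, all 10 members showed some difference (edgeR quasi-likelihood F test, Benjamini-Hochberg adjusted p below 0.05), with adjusted p from 1.08e-08 for ITGA3 to 0.0146 for DAG1. The same was true of 90% of all genes tested, so the count sets the members apart in no way. Against monolayer, small spheroids had 3 members up (ITGA3, ITGB4 and ITGB5) and 5 down (ITGB1, ITGAV, ITGB6, ITGA6 and ITGB8), beside 72.3% of all genes called in either direction. Large spheroids had 2 up (ITGA3 and ITGA2) and 1 down (ITGAV), beside 57.1%. Capsules had 4 up (ITGA3, ITGB4, ITGB5 and ITGA2) and the same 5 down as small spheroids, beside 66%. Of 10 members, 8 and 9 lie somewhat above those backgrounds and the 3 in large spheroids below theirs, a description of 10 genes with no test of its own. By direction, the backgrounds were 37% higher and 35.3% lower in small spheroids, 28.7% and 28.4% in large spheroids, and 34.5% and 31.5% in capsules. A called change of at least 2-fold was seen in 6, 1 and 5 members, beside 30.6%, 17.6% and 22.5% of all genes. The libraries did not overlap monolayer in 9, 7 and 7 members, beside 78%, 67.1% and 66.8%. The median log2 fold change of the members was -0.60, 0.07 and -0.12, against 0.01, -0.00 and 0.04 for all genes. After the GC and length correction 6, 4 and 6 members were called, beside 61.1%, 61.6% and 63.4% of all genes (28.9%, 30.4% and 31.5% higher, 32.2%, 31.2% and 31.9% lower). Called both ways in 1 direction were 5, 3 and 6 members. The 3 comparisons share the monolayer libraries, so they are not independent of each other.

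**Figure D1:**
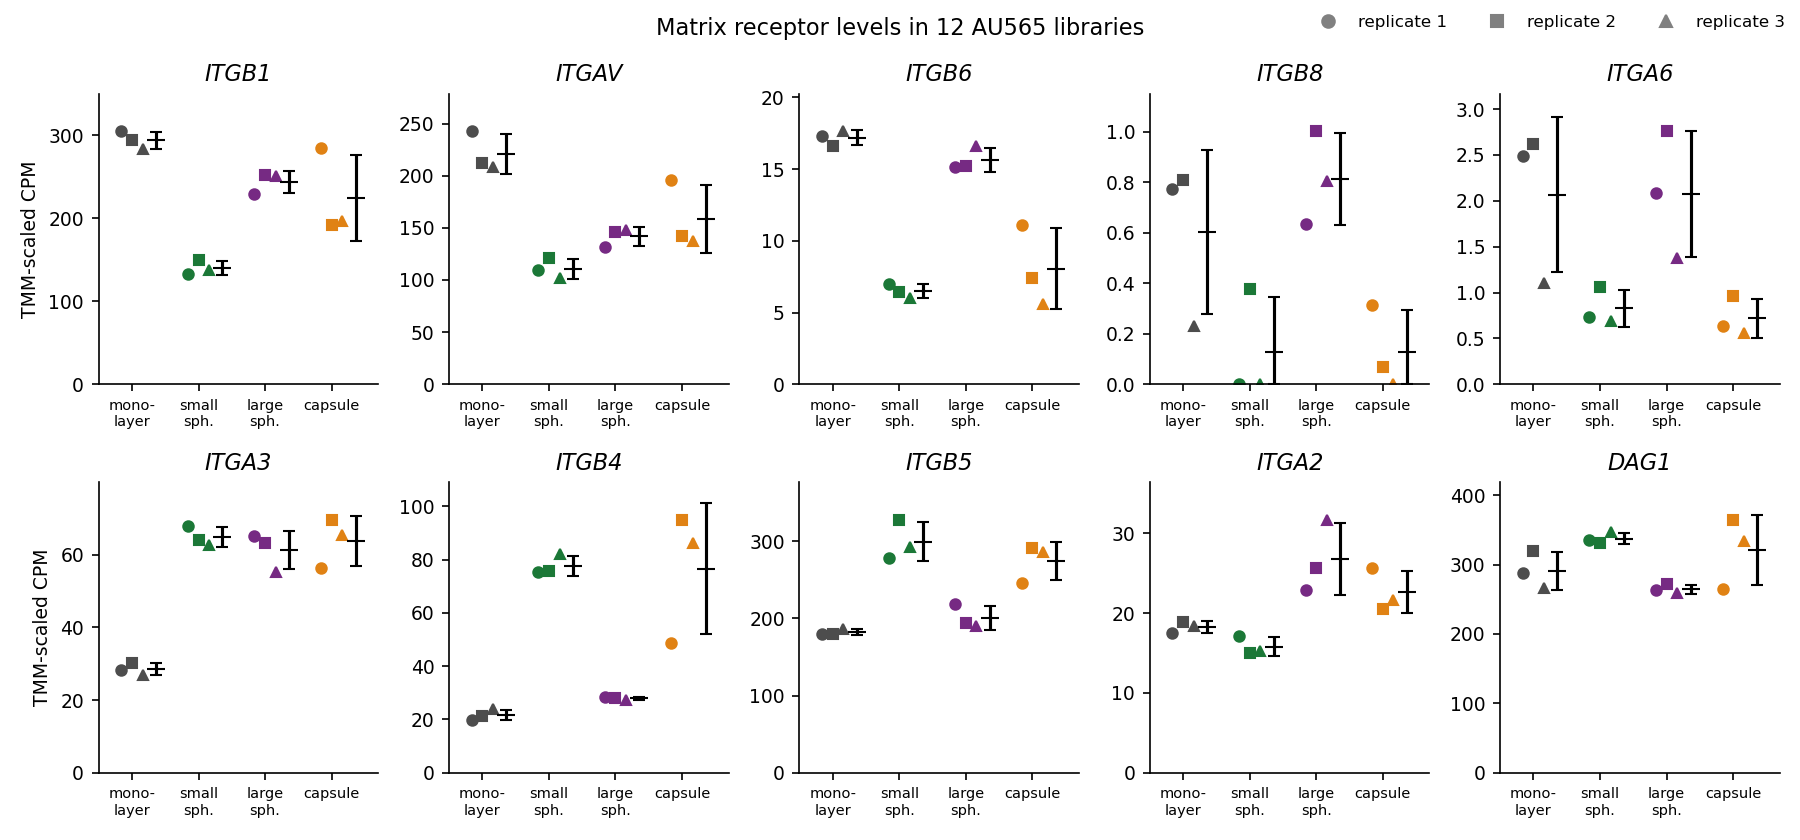
Level of each matrix receptor in each of the 12 libraries (y axis, TMM-scaled CPM, linear, separate scale per gene) by culture format (x axis). Points are libraries, with the mean and SD of 3 libraries to their right (lower bar ends at 0); ITGA3 lies between 27.0 and 30.2 in monolayer and at 55.3 or above in every other library.

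The laminin-binding α subunit ITGA3 (chr17:50056110-50090481) had the most uniform response. Its level was 28.1, 30.2 and 27.0 CPM in the 3 monolayers, 68.0, 64.1 and 62.6 in small spheroids, 65.1, 63.2 and 55.3 in large spheroids, and 56.3, 69.5 and 65.4 in capsules. Every library outside monolayer was above every monolayer, and the other 3 formats overlapped each other. ITGA3 rose 2.28-fold in small spheroids (log2 1.19 ± 0.09 SE, edgeR adjusted p = 7.77e-09). It rose 2.15-fold in large spheroids (log2 1.10 ± 0.09, edgeR adjusted p = 3.74e-08) and 2.24-fold in capsules (log2 1.16 ± 0.09, edgeR adjusted p = 1.53e-08). All 3 calls held after correction, but the order of the formats did not: the corrected log2 changes were 0.38, 0.93 and 0.74. As counted, large spheroids, small spheroids and capsules did not pass a test against each other, with the log2 difference of large from small spheroids at -0.09 ± 0.09. Corrected, that difference was 0.55 (edgeR adjusted p = 8.92e-07).

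ITGB4 (chr17:75721459-75757818), the hemidesmosome subunit, divided the formats into 2 levels, which follow the title tag UP given above. It measured 19.8, 21.4 and 23.8 CPM in monolayer and 28.5, 28.1 and 27.3 in large spheroids. In small spheroids it measured 75.5, 75.7 and 82.1, and in capsules 48.5, 94.9 and 86.3. All small spheroid and capsule libraries were thus above all monolayer and large spheroid libraries, with capsule replicate 1 the lowest of the 6. The rise was 3.58-fold in small spheroids (log2 1.84 ± 0.17, edgeR adjusted p = 4.47e-08) and 3.53-fold in capsules (log2 1.82 ± 0.17, edgeR adjusted p = 7.79e-08). In large spheroids the log2 change was 0.37 ± 0.17 (edgeR adjusted p = 0.0791). ITGB4 is also the member with the highest GC content, 63.7%, and its corrected log2 changes were 0.84, 1.27 and 0.15 in that order. The corrected difference of capsules from large spheroids, 1.12, was called, as was the difference as counted, 1.45. Capsules and small spheroids did not pass against each other as counted (log2 -0.02 ± 0.16, edgeR adjusted p = 0.917). Capsules were higher after correction (0.43, edgeR adjusted p = 0.00245) and without capsule replicate 1 (0.22, edgeR adjusted p = 0.0171).

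Its partner ITGA6 (chr2:172427336-172506459) was scarce and did not follow ITGB4. It had 45, 68 and 24 counts in monolayer, 11, 14 and 9 in small spheroids, 36, 55 and 24 in large spheroids, and 10, 14 and 8 in capsules. Scaled, the range was 1.10 to 2.62 CPM in monolayer, 0.688 to 1.06 in small spheroids, 1.38 to 2.76 in large spheroids and 0.563 to 0.963 in capsules. So ITGA6 was lowest in the formats where ITGB4 was highest, and no library of small spheroids or capsules reached the lowest monolayer. ITGA6 fell by 1.32 ± 0.38 on the log2 scale in small spheroids (edgeR adjusted p = 0.00532) and fell by 1.52 ± 0.39 in capsules (edgeR adjusted p = 0.0024). In large spheroids the log2 change was 0.01 ± 0.32 as counted and 0.12 corrected. Corrected, the capsule fall was 2.24-fold and called (edgeR adjusted p = 0.0109), and the small spheroid value was -0.79 (edgeR adjusted p = 0.0737).

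DAG1 (chr3:49468948-49535615), the dystroglycan gene, passed in no format against monolayer as counted. It measured 288, 319 and 266 CPM in monolayer, 336, 331 and 346 in small spheroids, 263, 271 and 258 in large spheroids, and 265, 364 and 334 in capsules. The small spheroid libraries were all above the monolayers, and the large spheroid and capsule libraries overlapped them. Against monolayer the log2 changes were 0.21 ± 0.10 in small spheroids (edgeR adjusted p = 0.0623), -0.14 ± 0.10 in large spheroids and 0.14 ± 0.10 in capsules. Corrected they were -0.12, -0.19 and 0.06, of which the fall in large spheroids was called (edgeR adjusted p = 0.0248). Without monolayer replicate 2 the rise in small spheroids was called as counted (0.28, edgeR adjusted p = 0.0329). Without capsule replicate 1, the lowest capsule, the capsule change was 0.27 and was called (edgeR adjusted p = 0.0019). Large spheroids were lower than small spheroids by 0.35 ± 0.10 as counted (edgeR adjusted p = 0.00492). That difference was -0.07 after correction and no longer called.

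The collagen-binding subunit ITGA2 (chr5:52989352-53094779) had its highest mean in large spheroids as counted, where its libraries overlapped those of capsules. It measured 17.5, 18.9 and 18.4 CPM in monolayer, 17.1, 15.0 and 15.2 in small spheroids, 22.9, 25.7 and 31.7 in large spheroids, and 25.7, 20.6 and 21.7 in capsules. The large spheroid and capsule libraries were all above the monolayers, and the small spheroids all below them. ITGA2 rose 1.46-fold in large spheroids (log2 0.55 ± 0.12, edgeR adjusted p = 0.000849). In capsules it rose 1.24-fold (log2 0.31 ± 0.12, edgeR adjusted p = 0.0331), a call lost with DESeq2 (adjusted p = 0.0544), with library totals, with only the 2 formats in the fit, and without capsule replicate 1 or any 1 monolayer. In small spheroids the log2 change was -0.21 ± 0.13 (edgeR adjusted p = 0.145). The corrected changes were all higher and all called: 0.59 in small spheroids, where the direction turned, 0.75 in large spheroids and 0.85 in capsules. Capsules and large spheroids did not pass against each other, at -0.24 ± 0.12 as counted (edgeR adjusted p = 0.0949) and 0.10 corrected. Without capsule replicate 1 or large spheroid replicate 1 capsules were lower as counted, by a called -0.34 and -0.35. ITGA2 has a GC content of 40.2%, close to the 40.0% of ITGB1 and the 40.1% of ITGB6. In capsules ITGA2 rose as counted while those 2 fell.

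**Figure D2:**
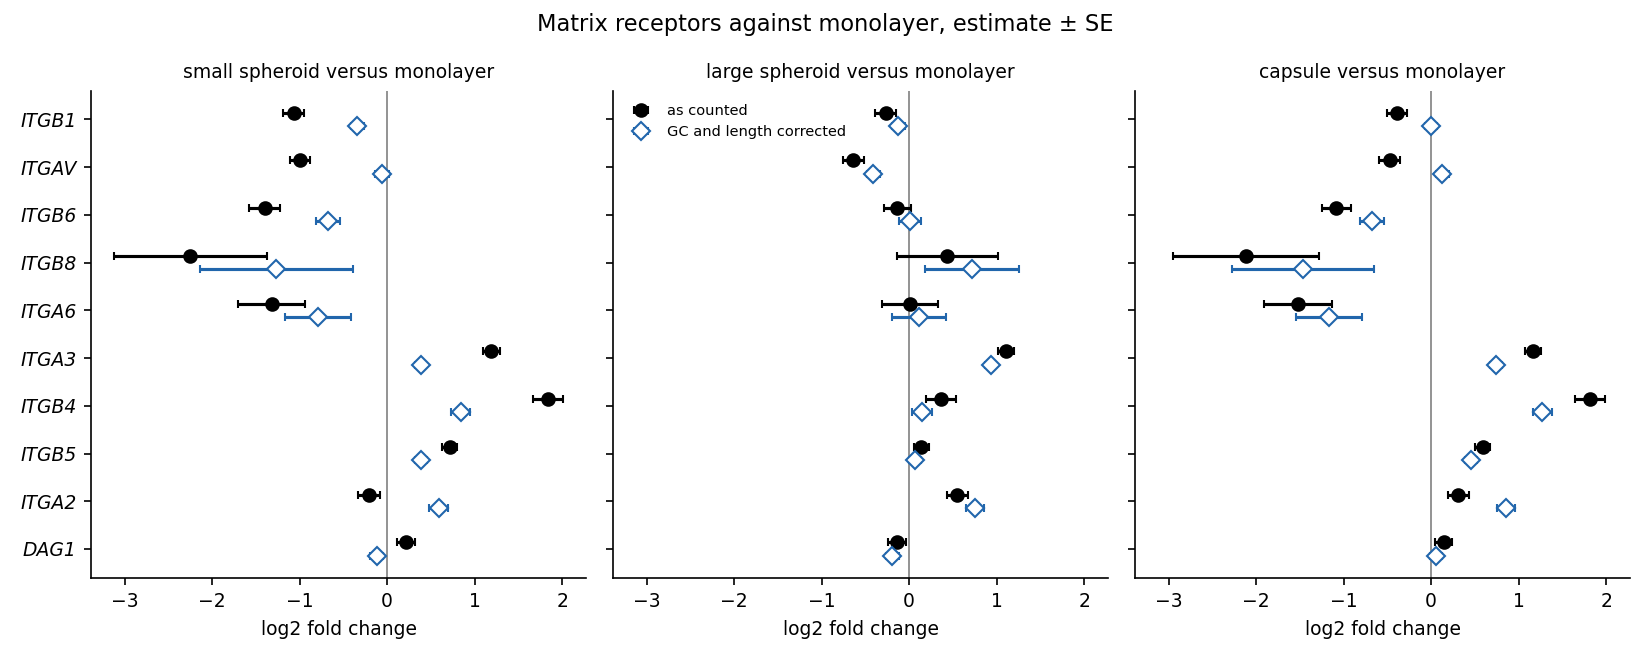
Log2 fold change against monolayer (x axis) of each matrix receptor (rows), as counted (filled circles) and after GC and length correction (open diamonds), with bars of 1 SE. The corrected values of ITGAV and ITGB1 lie near 0 in capsules, while those of ITGA3 and ITGA2 lie above 0 in all 3 formats.

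ITGB1 (chr10:32900318-32958230), the common β partner, was the most abundant member per kilobase in monolayer and lost most in small spheroids. It measured 305, 294 and 284 CPM in monolayer, 133, 149 and 138 in small spheroids, 229, 252 and 251 in large spheroids, and 285, 192 and 197 in capsules. Small and large spheroids lay below every monolayer, and capsule replicate 1 overlapped the monolayers. ITGB1 fell by 1.07 ± 0.12 on the log2 scale in small spheroids (2.10-fold, edgeR adjusted p = 3.44e-07) and fell by 0.39 ± 0.12 in capsules (1.31-fold, edgeR adjusted p = 0.00718). In large spheroids the log2 change was -0.27 ± 0.12 (edgeR adjusted p = 0.0548). DESeq2 called it at an adjusted p of 0.0413, and its corrected value was -0.12, not called. The capsule fall was 0.59 without capsule replicate 1 and was 0.00 after correction. The small spheroid fall was 0.34 after correction, with the call kept (edgeR adjusted p = 0.000399).

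ITGAV (chr2:186590056-186680901), the α subunit shared by ITGB5, ITGB6 and ITGB8, fell in all 3 formats as counted. It measured 242, 212 and 208 CPM in monolayer, 110.0, 121 and 102 in small spheroids, 131, 146 and 148 in large spheroids, and 196, 143 and 137 in capsules. Every library of the other formats lay below the lowest monolayer. The fall was 1.99-fold in small spheroids (log2 -0.99 ± 0.12, edgeR adjusted p = 8.33e-07), 1.56-fold in large spheroids (log2 -0.64 ± 0.12, edgeR adjusted p = 0.000171) and 1.39-fold in capsules (log2 -0.48 ± 0.12, edgeR adjusted p = 0.00173). The correction left the fall in large spheroids, at -0.41 (edgeR adjusted p = 8.7e-05), and ended the other 2 calls, at -0.06 in small spheroids and 0.13 in capsules. The contrast between the spheroids turned round: large spheroids were above small spheroids by 0.36 ± 0.12 as counted (edgeR adjusted p = 0.0133, but 0.06 without small spheroid replicate 3) and below them by a called -0.35 after correction (edgeR adjusted p = 0.000819).

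ITGB5 and ITGB6, 2 alternative partners of ITGAV, went opposite ways. ITGB5 (chr3:124761948-124901418) measured 180.2, 180.1 and 187 CPM in monolayer, 279, 327 and 292 in small spheroids, 218, 194 and 189.8 in large spheroids, and 246, 291 and 286 in capsules. ITGB6 (chr2:160099671-160200272) measured 17.3, 16.6 and 17.6 CPM in monolayer, 7.0, 6.44 and 6.04 in small spheroids, 15.1, 15.2 and 16.6 in large spheroids, and 11.1, 7.43 and 5.63 in capsules. In small spheroids and capsules every ITGB5 value was above, and every ITGB6 value below, all monolayer and large spheroid values. That split, too, follows the title tag UP. ITGB5 rose 1.64-fold in small spheroids (log2 0.71 ± 0.09, edgeR adjusted p = 1.14e-06) and 1.51-fold in capsules (log2 0.59 ± 0.09, edgeR adjusted p = 1.43e-05). ITGB6 fell 2.64-fold in small spheroids (log2 -1.40 ± 0.17, edgeR adjusted p = 1.41e-06) and 2.12-fold in capsules (log2 -1.08 ± 0.17, edgeR adjusted p = 2.39e-05). These 4 calls held after correction, at 0.39 and 0.45 for ITGB5 and -0.68 and -0.68 for ITGB6. In large spheroids neither passed, with 0.14 ± 0.09 for ITGB5 (corrected 0.06) and -0.14 ± 0.16 for ITGB6 (corrected 0.0080). Against large spheroids, capsules had more ITGB5 (0.45 ± 0.09) and less ITGB6 (-0.95 ± 0.17), both called also after correction. The summed level of the 10 luminal markers moved with ITGB4 and ITGB5. It was 21065 to 21543 CPM in small spheroids and 15524, 21093 and 20921 in capsules, with capsule replicate 1 lowest. In monolayer the sum was 13505 to 14784 and in large spheroids 12846 to 13440. Single markers differed. Mean ERBB2 was 7651, 11531, 6063 and 9871 CPM in monolayer, small spheroids, large spheroids and capsules. KRT19 was 1811, 4919, 2918 and 4095 in that order. KRT8 was 2143, 1983, 1331 and 2839, and EPCAM 125, 121, 232 and 208. The part of the luminal markers in the result was not tested. Without capsule replicate 1, the highest capsule for ITGB6, the capsule fall of ITGB6 was 1.39 on the log2 scale. The summed level of the 5 basal markers with a row moved with ITGB6 and with ITGA6 between formats. It was 15.3 to 19.0 CPM in monolayer, 17.2 to 21 in large spheroids, 7.34 to 8.40 in small spheroids and 8.47 to 10.1 in capsules. Like ITGA6, the sum was lowest in replicate 3 among the monolayers and among the large spheroids. ITGB6 was highest in replicate 3 of both formats. In capsules replicate 3 had the highest sum and the lowest ITGB6 and ITGA6. In small spheroids replicate 3 was lowest for the sum, ITGB6 and ITGA6. The part of the basal markers in the result was not tested.

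ITGB8 (chr7:20329766-20415754), the other TGF-β-binding partner, was near the limit of detection. It had 14, 21 and 5 counts in monolayer, 0, 5 and 0 in small spheroids, 11, 20 and 14 in large spheroids, and 5, 1 and 0 in capsules. A count of 0 allows up to 3 counts, or 0.200 to 0.229 CPM in these libraries, for counting error only, and monolayer replicate 3 measured 0.230 CPM. ITGB8 fell by 2.25 ± 0.88 in small spheroids (edgeR adjusted p = 0.0292) and fell by 2.12 ± 0.84 in capsules (edgeR adjusted p = 0.0345), though libraries of these groups overlapped the monolayers. Neither call held after correction, where the adjusted p was 0.219 and 0.124. The small spheroid call was also lost without monolayer replicate 1 or 2 or small spheroid replicate 1 or 3, at -1.63 to -2.07. The capsule call was lost without monolayer replicate 1 or 2 or capsule replicate 2 or 3, at -1.58 to -1.94. Against large spheroids, capsules had less ITGB8 as counted (-2.55 ± 0.82) and corrected (-2.18), with no overlap. Large spheroids had more ITGB8 than small spheroids (2.68 ± 0.85, edgeR adjusted p = 0.0105), a call lost after correction and without small spheroid replicate 1 (2.06, edgeR adjusted p = 0.0577).

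ITGA6 and ITGB8 shared part of their pattern over libraries with markers of other cells. Like melanocyte markers, they had low means in small spheroids and capsules. Unlike those markers, their means were not lower in large spheroids than in monolayer. ITGA6 averaged 2.07 CPM in both, and ITGB8 0.815 in large spheroids against 0.604 in monolayer. The 6 melanocyte markers with a row (of 7) summed to 54.8 to 115 CPM in monolayer, 23.3 to 30.0 in large spheroids and 6.27 to 7.71 in small spheroids and capsules. TYRP1 was at 14.9 to 31.4 CPM in monolayer and at most 0.153 in small spheroids and capsules. Monolayer replicate 3, lowest of its format for both integrins, was also lowest for melanocyte markers and for mesenchymal markers (84.7 CPM, against 129 and 154). Unlike both integrins, the summed mesenchymal markers in small spheroids (56.9 to 79.9 CPM) lay within the range of large spheroids (52.1 to 93.7). Single mesenchymal markers differed. Mean POSTN was 21.9, 0, 16.6 and 0.0211 CPM in monolayer, small spheroids, large spheroids and capsules. VIM was 46.9, 8.24, 20.1 and 4.61 in that order, and COL1A1 8.36, 25.3, 5.73 and 17.9. Like both integrins, POSTN and VIM had low means in small spheroids and capsules, where COL1A1 had high ones. Cardiac markers summed to 182 CPM in monolayer replicates 1 and 2 but 1.24 in replicate 3, and to 63.1 and 49.6 in large spheroid replicates 1 and 2 but 4.71 in replicate 3. Without those 4 libraries, a choice made after their counts were seen, neither gene was called against monolayer. ITGA6 then stood at -0.43 in small spheroids (edgeR adjusted p = 0.466) and -0.63 in capsules (edgeR adjusted p = 0.302), with ITGB8 at -0.89 and -0.77. That fit has 1 monolayer and 1 large spheroid, assumed to vary like the other groups. ITGA3, ITGB4, ITGB5 and ITGB6 kept their calls in it for small spheroids and capsules. ITGB1 and ITGAV kept theirs for small spheroids, and lost them in capsules at an edgeR adjusted p of 0.143 and 0.0849. ITGA2 lost its capsule call (edgeR adjusted p = 0.221), and ITGAV its large spheroid call (-0.46, edgeR adjusted p = 0.175). The part of these marker reads in the result was not tested.

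**Figure D3:**
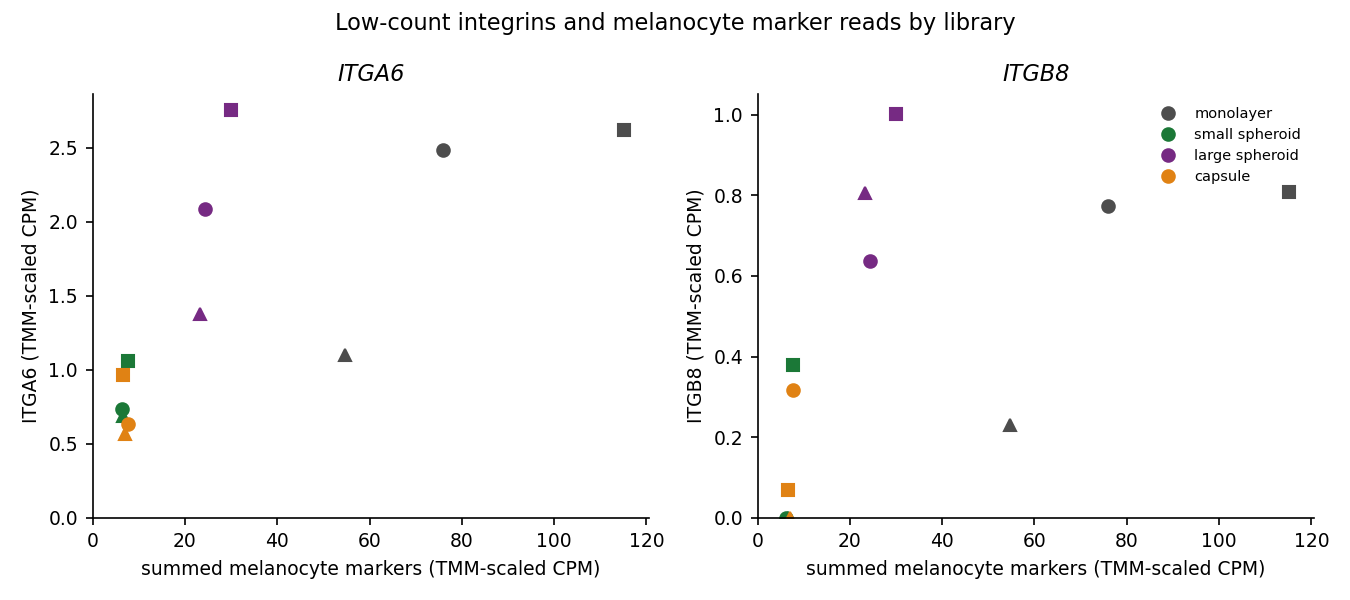
Level of ITGA6 (left) and ITGB8 (right) on the y axis against the summed level of 6 melanocyte markers on the x axis, both in TMM-scaled CPM, with 1 point per library coloured by format (circle, square and triangle for replicates 1, 2 and 3). Small spheroids and capsules lie at 6.27 to 7.71 on the x axis, and monolayer replicate 3 is the lowest monolayer on both axes.

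Because the members differ in length, their levels were ranked per kilobase of transcript. In monolayer ITGB1 led at 74.8 ± 2.67 CPM per kilobase (SD, n = 3), followed by DAG1 (44.9) and ITGB5 (41.7), whose libraries overlapped, and ITGAV (30.6). In small spheroids ITGB5 led at 68.5 ± 5.76, above DAG1 (52.1), ITGB1 (35.7) and ITGAV (15.4), with no overlap between neighbours. Large spheroids kept the lead of ITGB1 at 62.0 ± 3.25, above ITGB5 (45.9), DAG1 (40.8) and ITGAV (19.7). In capsules ITGB5 (62.8 ± 5.70), ITGB1 (57.1 ± 13.2) and DAG1 (49.6 ± 7.86) overlapped in sequence. ITGA3 came next after these 4 in every format, between 5.82 in monolayer and 13.3 in small spheroids. ITGB4 overlapped ITGB6 in monolayer (3.50 and 3.67) and ITGA3 in small spheroids (12.6) and capsules (12.4). ITGA6, at 0.123 to 0.355, and ITGB8, at 0.0137 to 0.0884, came last throughout.

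Read as shares of the 5 β subunits per kilobase, the make-up changed while the total did not move far. The β total was 124 ± 1.71 CPM per kilobase in monolayer, 118 ± 7.76 in small spheroids, 116 ± 0.565 in large spheroids and 134 ± 4.27 in capsules (SD, n = 3). ITGB1 held 60.4% ± 1.40 of it in monolayer, 30.2% ± 0.229 in small spheroids, 53.5% ± 2.90 in large spheroids and 42.5% ± 8.40 in capsules. ITGB5 held 33.7%, 57.9%, 39.6% and 47.0% in the same order, and ITGB4 2.83%, 10.7%, 3.90% and 9.30%. ITGB6 held 2.96% and 2.88% in monolayer and large spheroids and 1.18% and 1.27% in small spheroids and capsules. Among the 4 α subunits ITGAV held 78.2% ± 1.74 in monolayer and 49.9% ± 2.19, 54.7% ± 2.28 and 57.5% ± 6.20 in small spheroids, large spheroids and capsules. ITGA3 took up most of the difference, from 14.9% ± 1.19 to 43.2%, 34.9% and 34.6%. These shares carry no test and are not corrected for GC content.

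**Figure D4:**
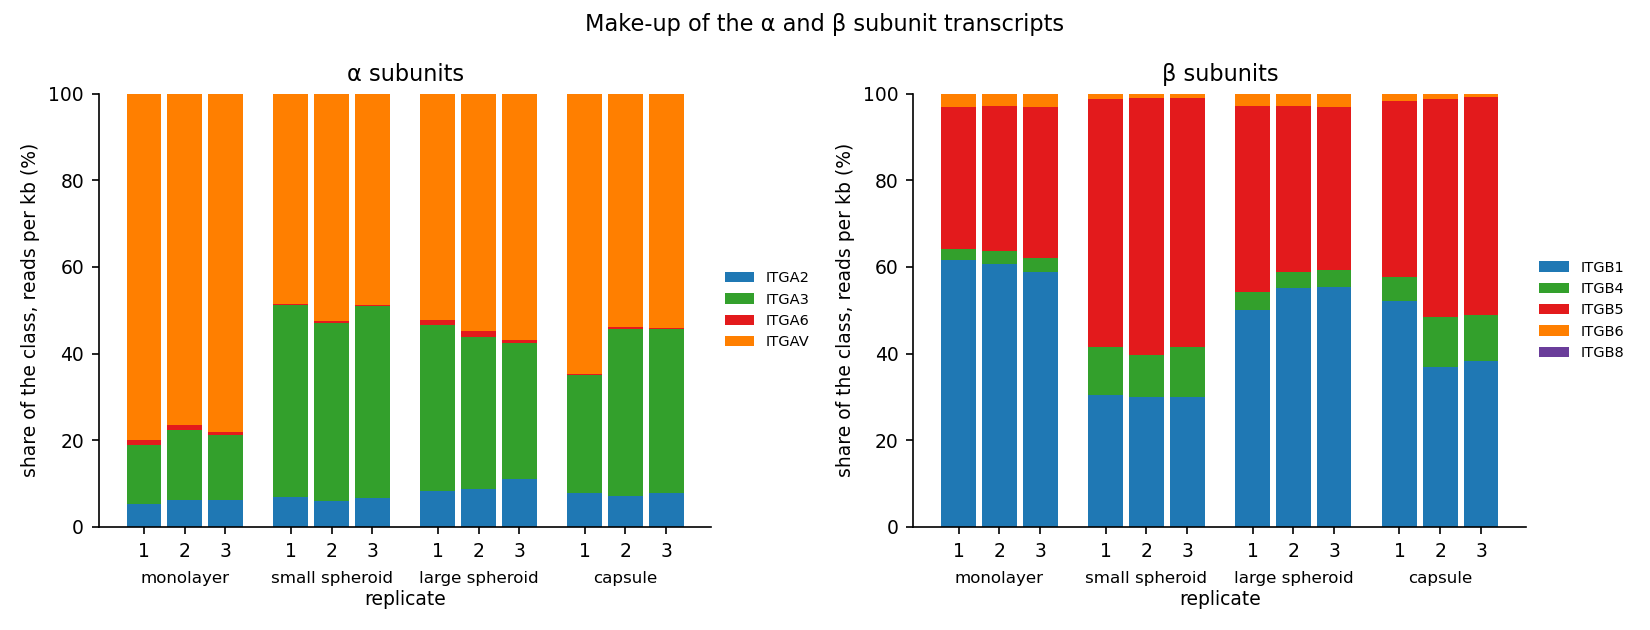
Share of each subunit in the summed reads per kilobase of the 4 α subunits (left) and the 5 β subunits (right), in percent on the y axis, with 1 stacked bar per library, grouped by format on the x axis. ITGB1 falls from 60.4% of the β reads in monolayer to 30.2% in small spheroids, where ITGB5 reaches 57.9%.

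Between the other formats, large against small spheroids had 9 members called, 6 up (ITGB1, ITGAV, ITGB6, ITGA2, ITGA6 and ITGB8) and 3 down (ITGB4, ITGB5 and DAG1), beside 66.3% of all genes (32.9% higher, 33.4% lower). All 6 risers are members of low GC content and all 3 fallers of high GC content. After correction 6 were called, beside 50.6% (25.9% higher, 24.7% lower), of which ITGB1 (0.22), ITGB6 (0.68), ITGB4 (-0.69) and ITGB5 (-0.32) kept their direction. Capsules against small spheroids had 3 members called, ITGB1 (0.68 ± 0.12), ITGAV (0.52 ± 0.12) and ITGA2 (0.52 ± 0.13), all higher, beside 52% (27% higher, 25% lower). Without capsule replicate 3, ITGB6 was also called (0.51, edgeR adjusted p = 0.0153). Of the 3, ITGB1 was still called after correction (0.34, edgeR adjusted p = 0.000707), where 3 members were called beside 45.6% (23.7% higher, 22% lower). Capsules against large spheroids had 6 called, with ITGB4, ITGB5 and DAG1 higher and ITGB6, ITGA6 and ITGB8 lower, beside 62.7% (32.1% higher, 30.6% lower), and all 6 held after correction, where 8 were called beside 63.8% (31.7% higher, 32.1% lower). The DAG1 call (0.28 ± 0.10, edgeR adjusted p = 0.021, with overlapping libraries) was lost without capsule replicate 2 or 3 or large spheroid replicate 1 or 3, at 0.18 to 0.26, and with only the 2 formats compared. Without the 4 libraries with cardiac reads the calls of DAG1, ITGA6 and ITGB8 were lost, at an edgeR adjusted p of 0.227, 0.116 and 0.0768. The other 2 called after correction were ITGAV, higher in capsules (0.53), and ITGA3, lower (-0.19). In these 3 comparisons 4, 0 and 3 members were called with a change of at least 2-fold, beside 19.8%, 9.87% and 21.1%, and 9, 3 and 5 did not overlap, beside 73.1%, 58.8% and 63%.

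**Figure D5:**
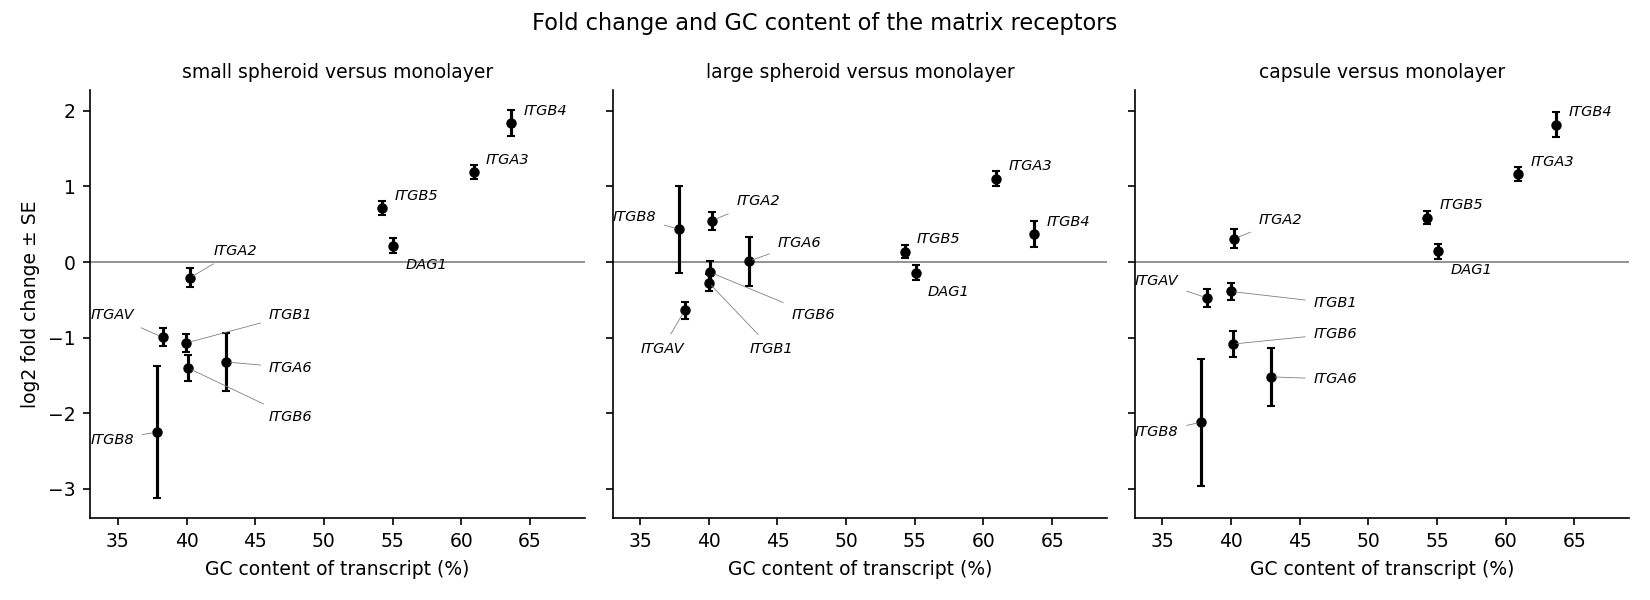
Log2 fold change against monolayer as counted (y axis, bars of 1 SE) of each matrix receptor against the GC content of its transcript (x axis, percent) in 3 formats. In small spheroids the members of 54.3% GC or more lie above 0 and those of 42.9% or less below 0, while in large spheroids the 2 sets overlap.

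Members of nearly the same GC content were also compared with each other. ITGB1, ITGB6 and ITGA2 lie between 40.0% and 40.2%, a trio picked after their values were seen, and their ratios were compared library by library. ITGA2 per ITGB1, on reads per kilobase, was 0.0310 ± 0.00209 in monolayer and 0.0565 ± 0.00713, 0.0546 ± 0.00732 and 0.0511 ± 0.00533 in small spheroids, large spheroids and capsules (SD, n = 3). Every library outside monolayer was above every monolayer. ITGA2 per ITGB6 was 0.633 in monolayer and 1.45, 1.01 and 1.77 in the other formats, again with no overlap. ITGB6 per ITGB1 was lower than in monolayer in small spheroids by 0.34 and in capsules by 0.74 on the log2 scale, without overlap, and overlapped in large spheroids. In 8 of these 9 comparisons the exact permutation test (2-sided) gave p = 0.1, the smallest that 3 against 3 libraries allow (0.113 after Benjamini-Hochberg adjustment). The remaining one gave an exact p of 0.2. Length still differs within the trio, from 3930 bases for ITGB1 to 7869 for ITGA2.

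By library, the genes most like each member were named by the highest Pearson r of log2 CPM among all 15175 genes over the 12 libraries. The libraries form 4 formats and share depth and base composition effects, so r describes these libraries and carries no p. For ITGB1 it was USP15 (r = 0.996), for ITGAV IPO5 (0.991), for ITGA3 FRS3 (0.991), for ITGB4 NCCRP1 (0.992), for ITGB5 GLRX5 (0.986) and for ITGB6 NCOA3 (0.990). For ITGA2 it was ARL14EP (0.964), for ITGA6 SIM1 (0.965), for ITGB8 CORO1C (0.948) and for DAG1 CT45A9 (0.926). Among the members themselves, r was 0.97 between ITGB4 and ITGB5, -0.97 between ITGB4 and ITGB6, 0.91 between ITGAV and ITGB1 and -0.80 between the partners ITGB4 and ITGA6.

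Of the other integrin subunits, 13 of 17 had a row and 10 were tested. In small spheroids 4 rose and 1 fell, in large spheroids 3 rose and 4 fell, and in capsules 6 rose and 1 fell, beside the 72.3%, 57.1% and 66% of all genes called. After correction these were 4 and 1, 3 and 4, and 3 and 1, beside 61.1%, 61.6% and 63.4% of all genes. ITGA5, the fibronectin receptor subunit that pairs with ITGB1, rose 3.18-fold in small and 3.22-fold in large spheroids and 1.49-fold in capsules, where the corrected change of 0.26 was not called. ITGB2, the β subunit of leukocyte integrins, rose 4.03-fold, 4.41-fold and 3.86-fold from a level of 2.53 ± 0.594 CPM in monolayer (SD, n = 3), with called corrected changes of 1.33, 2.00 and 1.57. ITGA9 rose 2.52-fold, 1.89-fold and 1.63-fold, with called corrected changes of 1.46, 0.97 and 0.91. ITGA1, a collagen receptor subunit, fell by 1.09, 1.03 and 1.04 on the log2 scale, and its corrected value in small spheroids, -0.12, was not called. ITGAE rose in capsules (log2 0.74, corrected 0.57) and fell in large spheroids (log2 -0.36, corrected -0.43), with both calls kept. Its small spheroid change was -0.13 as counted and a called -0.50 corrected. ITGAL and ITGA2B, at 3.56 and 0.715 CPM in monolayer, fell by 1.72 and 2.87 in large spheroids (corrected -1.80 and -3.06, both called) and did not pass elsewhere. ITGA7 rose in small spheroids and capsules by 1.60 and 1.09, with corrected values of 0.84 (called) and 0.70 (not called). ITGB7 rose in capsules by 0.94 (corrected 0.52, not called), and ITGA10 passed in no format (0.66, 0.95 and 0.48).

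Of 19 tested ligand genes, 9 rose and 5 fell in small spheroids, 4 rose and 3 fell in large spheroids, and 6 rose and 6 fell in capsules, beside the same shares of all genes. After correction the balance differed, with 7 up and 8 down, 4 and 4, and 4 and 7, beside 61.1%, 61.6% and 63.4% of all genes. AGRN, which encodes agrin and binds dystroglycan, rose from 455 ± 39.2 CPM in monolayer to 1532 ± 52.7 in small spheroids, 571 ± 51.8 in large spheroids and 888 ± 195 in capsules (SD, n = 3). Its GC content is 67.5%, and its corrected log2 changes were 0.46, 0.05 (not called) and 0.25. LAMB2, a laminin chain, rose 2.53-fold in small spheroids (corrected 0.60, called) and 1.20-fold in capsules (corrected -0.09, not called). LAMA5, another, rose in small spheroids (log2 1.05) and capsules (log2 0.59) as counted, with corrected values of -0.07 and 0.04 that were not called. In large spheroids it was -0.14 as counted and a called -0.33 corrected. Of 14 other matrix receptors, 10 rose and 2 fell in small spheroids, 5 and 2 in large spheroids, and 8 and 4 in capsules. Of all genes, 72.3%, 57.1% and 66% were called in these comparisons. After correction the receptor counts were 7 and 2, 5 and 4, and 6 and 4, beside 61.1%, 61.6% and 63.4%. SDC1, the syndecan of epithelia, rose 1.89-fold, 1.44-fold and 1.96-fold, and all 3 calls held after correction. BCAM, a receptor of laminin, rose in small spheroids (log2 0.91) and fell in capsules (log2 -0.58). After correction the first was -0.17, not called, and the second -1.24.

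Inside the cell, 25 integrin adaptors and kinases were tested. Of these, 11 rose and 11 fell in small spheroids, 10 and 6 in large spheroids, and 9 and 10 in capsules. Of all genes, 72.3%, 57.1% and 66% were called in these comparisons. VCL, which encodes vinculin and links integrins to actin, fell by 0.79, 0.56 and 1.02 on the log2 scale and by a called 0.61, 0.52 and 0.83 after correction. ZYX, of the same list, went the other way in its means as counted in small spheroids and capsules. It averaged 251 ± 24.5 CPM in monolayer, 493 ± 31.8 in small spheroids, 279 ± 13.7 in large spheroids and 371 ± 63.6 in capsules (SD, n = 3). Its large spheroid mean was close to that of monolayer. After correction the list gave 8 up and 9 down, 12 and 7, and 9 and 10, beside 61.1%, 61.6% and 63.4% of all genes. TNS4, a tensin that binds β subunit tails, fell by 0.98 in large spheroids and 0.79 in capsules (corrected -1.09 and -1.08), and its small spheroid value was 0.13 as counted and a called -0.45 corrected. Of 6 hemidesmosome genes, 3 rose and 3 fell in small spheroids, with 4 rising and 2 falling in each of the other formats. After correction these were 2 and 3, 4 and 2, and 3 and 3. The shares of all genes beside these counts are those given above. CD151, a tetraspanin of the laminin-binding integrins, rose 2.25-fold, 1.39-fold and 2.03-fold, with the corrected values of 0.05 (not called), 0.20 and 0.21. PLEC, which encodes plectin and ties ITGB4 to keratin, rose 1.41-fold in small spheroids and 1.27-fold in capsules as counted, and fell after correction (-0.62 and -0.19, both called). DST, its relative, fell in small spheroids (-0.21), rose in large spheroids (0.43) and capsules (0.59) and had a called corrected rise in all 3 formats.

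Of 7 genes of latent TGF-β, the cargo of ITGAV with ITGB6 or ITGB8, 4 rose and 2 fell in small spheroids, 5 and 2 in large spheroids, and 3 and 3 in capsules. Of all genes, 72.3%, 57.1% and 66% were called in these comparisons. After correction the counts were 3 and 2, 5 and 2, and 2 and 4, beside 61.1%, 61.6% and 63.4%. TGFB3 rose 1.94-fold, 1.94-fold and 1.99-fold, and LTBP3, a latent TGF-β binding protein, 4.52-fold, 2.45-fold and 3.24-fold, with all 6 calls kept after correction. LTBP1 fell 1.74-fold in large spheroids and 1.39-fold in capsules (corrected -0.81 and -0.42, both called). On the dystroglycan side, 9 genes of its complex gave 4 up and 5 down in small spheroids, 3 and 4 in large spheroids, and 4 and 4 in capsules. Corrected, they gave 4 and 3, 3 and 4, and 4 and 4, with the same shares of all genes beside both sets of counts. SNTB1 rose 2.58-fold, 2.19-fold and 1.22-fold, and DTNB 2.10-fold, 1.67-fold and 1.67-fold. Corrected, SNTB1 was at 1.82, 1.20 and 0.58 and DTNB at 0.60, 0.63 and 0.45, all called. SGCE, of the same list, averaged 87.2 CPM in monolayer, 61.1 in small spheroids, 73.4 in large spheroids and 88.2 in capsules. Of 18 genes that build the sugar chains of dystroglycan, 11 rose and 3 fell in small spheroids, 8 and 3 in large spheroids, and 9 and 0 in capsules. After correction these were 8 and 4, 8 and 6, and 10 and 1. Beside them stand 72.3%, 57.1% and 66% of all genes as counted, and 61.1%, 61.6% and 63.4% corrected. LARGE2, which extends the laminin-binding chain, rose 2.80-fold, 1.30-fold and 2.05-fold, and its corrected value of 0.13 in large spheroids was not called. DPM1, of the same list, averaged 75.1 CPM in monolayer, 61.8 in small spheroids, 82.8 in large spheroids and 99.1 in capsules. POMGNT1 averaged 54.7, 67.5, 55.7 and 60.7 in that order. DAG1 itself, as given above, passed against monolayer in no format as counted.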

How the data were processed

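RNA of 12 AU565 samples, 3 for each of 4 formats, was extracted with TRIzol and sequenced from TruSeq libraries, per the labels' protocols. The deposited table holds whole-number read counts per Entrez gene, aligned with subread per the file header and counted with featureCounts against hg38 per the submitters' processing notes; the notes also name limma. Of versions, annotation release and strand setting the sources used here say nothing, so reads of overlapping antisense genes cannot be told apart. The table's 16020 rows appear already filtered: the lowest second-highest CPM of any row is 0.501. The 164 rows without a symbol hold 0.0705% of the counts. Samples were grouped by the format in their labels, and columns were matched by format and number.

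The counts were tested with edgeR 4.0.16 (R 4.3.3): genes passing filterByExpr (minimum count 10), TMM scaling, 1 quasi-likelihood fit of all 12 libraries, and Benjamini-Hochberg adjustment over 15175 genes. A gene was called at an adjusted p below 0.05. The corrected values use offsets from a loess (span 0.5) of each library's deviation on GC content and then length (GENCODE 29), known for 96.5% of genes tested. Correlations use log2 CPM with a prior count of 2. Alternatives were DESeq2 1.42.0 and its size factors, library totals, limma-voom (limma 3.58.1), no filter, only the 2 formats compared, a replicate block, and leaving out each library. Leaving out 4 libraries was added after seeing the data. The fitting steps were tested on simulated data. Intervals and floors cover counting error only.

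Members and gene lists were chosen with earlier results of these data known. Of the other genes, those named are every tested integrin subunit, the gene closest to each member and defining marker genes. The 3 genes of each further list with the highest mean CPM over the 12 libraries are also named. Fold changes are printed for some of these, and means only for others.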

Additional observations from a re-analysis of the deposited data

How the results depend on the processing

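Depth limits ITGA6 (8 to 68 counts a library) and ITGB8 (0 to 21). Among the 60 values of single members in 6 comparisons, the GC and length correction kept the direction and call of 32. It ended 11 calls and added 2 among values that kept their direction, and turned the direction of 15. Some turned values also changed call. ITGA2 (small spheroids against monolayer), ITGA3 (each comparison where it turned) and ITGB4 (capsules against small spheroids) became called. ITGAV (capsules against monolayer) lost its call. Under this correction, and under the replicate block with GC and length correction in parentheses, the turned log2 differences were as follows. Small spheroids against monolayer: DAG1 -0.12 (-0.12) and ITGA2 0.59 (0.59). Large spheroids against monolayer: ITGB6 0.0080 (0.0068). Capsules against monolayer: ITGAV 0.13 (0.12). Large against small spheroids: ITGA3 0.55 (0.55) and ITGAV -0.35 (-0.35). Capsules against small spheroids: DAG1 0.18 (0.17), ITGA3 0.36 (0.36), ITGB4 0.43 (0.42), ITGB5 0.062 (0.063), ITGB6 -0.000755 (-0.00599) and ITGB8 -0.20 (-0.19). Capsules against large spheroids: ITGA2 0.10 (0.11), ITGA3 -0.19 (-0.19) and ITGB1 0.12 (0.12). With library totals, capsules against small spheroids gave DAG1 0.029, ITGA3 0.072 and ITGB4 0.078, large against small spheroids gave ITGA3 0.026, and large spheroids against monolayer gave ITGA6 -0.033. That ITGA6 value was -0.0088 with DESeq2 and -0.0052 with its size factors. The cause of these turns was not tested.

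With only the 2 formats compared, 6 members were called between large spheroids and monolayer, not 3. Without the 4 libraries with cardiac reads, 4 members were called between capsules and monolayer and 5 between large and small spheroids (9 each with all libraries), and 3516 of all genes, not 8669, between large spheroids and monolayer; fewer samples enter that fit. Leaving out 1 library at a time gave log2 differences of capsules from small spheroids from -0.17 to 0.048 for DAG1, -0.096 to 0.053 for ITGA3, -0.46 to 0.0095 for ITGA6, -0.21 to 0.22 for ITGB4 and -1.62 to 4.31 for ITGB8. Capsules from large spheroids ranged from -0.012 to 0.14 for ITGA3 and -0.018 to 0.26 for ITGAV, and large spheroids from monolayer from -0.29 to 0.23 for ITGA6. The members called ranged from 7 to 8, 3 to 3 and 7 to 9 against monolayer (small spheroids, large spheroids and capsules). All genes called ranged from 10360 to 10668, 7715 to 8235 and 9285 to 10704 in the same order. Replicate numbers are shared between formats but the labels do not say that they pair samples. The correlation of same-numbered libraries exceeded 0.1 in every pair of no comparison, and 6 of 12 libraries correlated best with their own number. The replicate block gave 8, 3 and 9 members called against monolayer, beside 10833, 8399 and 9847 of all genes, and changed no call among the 60 values.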
